A study of Canis lupus familiaris with 17 samples.

Results

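The transcriptome of scribRES cells grown with tetracycline (+TET) was compared with that of the uninduced parental line, over all transcripts and within each experiment in which both were sequenced. MDCK cells are a long-established epithelial line from dog kidney. The scribKD line is an MDCK line (MDCK-pTR scribble shRNA) whose hairpin RNA against scribble is made only when tetracycline is added, and the control was this line without tetracycline (scribKD -TET). The scribRES line is an isolate derived from it. Cells of the scribKD line were kept in tetracycline for weeks, and the population obtained at the end was then grown up without it. For these libraries the isolate was given tetracycline again, at 10 μg/ml, a higher dose than that used to derive it. All groups thus carry the same hairpin construct. Each dish held 1300000 plated cells and RNA was collected after 67 h. Of the 17 sequencing runs of the series, 8 libraries enter the comparison, 4 of scribRES +TET and 4 of control, from experiments 2 and 3 with 2 libraries of each population per experiment. The scribRES line is 1 isolate, and scribRES cells without tetracycline were not analysed here, so the isolate, the silencing of scribble and tetracycline itself cannot be told apart in what follows. The 4 scribKD +TET libraries of the same experiments are given beside the others as a description only, because they were compared with the same controls.

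Scribble is a scaffold protein of the basolateral membrane, where it takes part in apicobasal polarity and in the organisation of cell contacts. MDCK cells keep many features of renal tubule cells: they form tight junctions from claudins, transport solutes between an apical and a basolateral face, carry primary cilia and sort their membrane and secreted proteins through the endoplasmic reticulum and the Golgi apparatus. Transport between those compartments depends on coated vesicles. COPII coats (Sec13, Sec23, Sec24 and Sec31 proteins) bud from the endoplasmic reticulum, COPI coats (coatomer subunits, recruited by Arf GTPases) act between the Golgi and the endoplasmic reticulum, and an overloaded endoplasmic reticulum switches on the unfolded protein response.

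Levels are given as RPKM, the reads of a transcript scaled to its length and to the size of the library. Of 21571 transcripts, 10696 were tested, those for which every library of at least 1 population exceeded 5 RPKM and the 2 libraries of each experiment lay within 2-fold. Library totals were 12612664 to 16673535 reads in experiment 2 and 18884441 to 21130065 in experiment 3, and 3 reads on a 2 kb transcript corresponded to 0.071 to 0.119 RPKM, counting error only. The 2 scribRES libraries of an experiment differed by more than sampling noise, and the 2 control libraries by more still. Chi-square per transcript was 1.73 and 2.44 between scribRES libraries and 5.87 and 6.03 between control libraries, against 1.12 for 1 library sequenced in 2 runs. The study counts as many biological replicates of scribRES as there are experiments, so the libraries of an experiment are best read as repeats of the same biological replicate. P-values over 4 and 4 libraries rest on the spread between libraries of an experiment pooled with the disagreement of the effect between the experiments. Each library counts there as a replicate, so they are then too small as tests over biological replicates. With 1 mean per experiment and population, limma called 0 transcripts (lowest adjusted p = 0.0637), and 1686 had an unadjusted p under 0.05. Every call below holds over libraries and not over experiments. Gene names were at hand for 1816 transcripts (8.4%), mostly from a list that the study had drawn up by comparing scribKD +TET with the same control cells. Named transcripts were called more often (552 of 1418 tested, 38.9%) than transcripts at large, while those named from RefSeq alone were not (29 of 208, 13.9%). Of those named from the study's list, which supplied most members of the gene lists, 523 of 1210 tested were called. The 38.9% is thus a low standard for the gene lists. Directions within the gene lists below are not independent of that choice. Of the kidney epithelial markers, Krt19 was abundant in both populations (1039 to 1705 RPKM in control and 973 to 1398 in scribRES libraries) and Pax8 was present in all 8 libraries, while Cdh16, the kidney-specific cadherin, was low (2.45 to 6.55 RPKM in control and 0.0286 to 1.99 in scribRES) and was not tested. The fibroblast marker Dcn was at 0 in every control library and at most 0.056 RPKM in scribRES. Of the longer lists of leukocyte and endothelial markers, 2 and 1 transcripts were named and 0 passed the filter on low values.

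Scrib (XM_003431819.1), the target of the hairpin, was examined first. Control libraries had 34.6 and 30.8 RPKM (experiment 2) and 30.1 and 26.0 (experiment 3). The scribRES libraries had 12.4 and 12.2 (experiment 2) and 14.8 and 13.9 (experiment 3), and the scribKD +TET libraries 16.2 and 16.2 (experiment 2) and 12.1 and 12.01 (experiment 3). Every scribRES library lay below every control library (log2 fold change -1.18, standard error 0.11, adjusted p = 0.000261), so the isolate still carried less of the scribble transcript than uninduced cells. Its values rest on 767 to 2898 reads in each library.

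Across all transcripts 1674 (15.7%) differed between scribRES and control cells past an adjusted p of 0.05 and a log2 fold change of 0.5 in either direction, 938 of them higher (8.77%) and 736 lower (6.88%) in scribRES. All 1674 had the same sign in both experiments. This follows largely from the call, because unequal effects in the experiments enlarge the standard error, and it is no separate evidence of agreement. The 4 scribRES and 4 control values did not overlap for 1261 of them, against 2698 (25.2%) of all transcripts tested. The size of the difference was unequal between experiments. In 1451 of the 1674 it was larger in experiment 2, and 701 (361 higher, 340 lower) exceeded the fold threshold in each experiment taken alone. The median absolute log2 fold change over all transcripts tested was 0.32 in experiment 2 and 0.18 in experiment 3. A test of the difference between the experiments called 2451 transcripts (22.9%), of which 1238 had opposite signs and 37 exceeded the threshold in opposite directions. The analysis of recovered reads by limma-voom, library by library, called 1630. Median-ratio scaling turned the split to 799 higher and 864 lower.

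**Figure D1:**
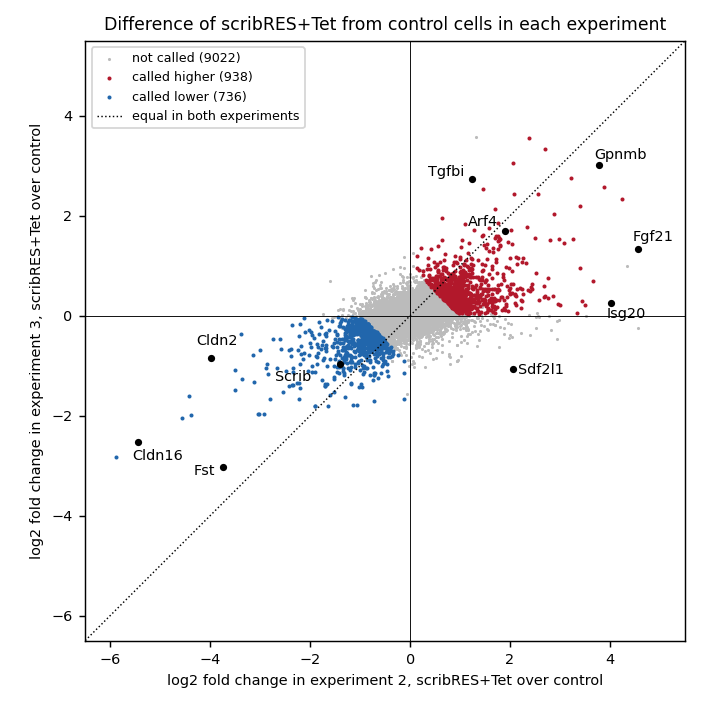
Log2 fold change of scribRES +TET over control in experiment 2 (horizontal axis) and experiment 3 (vertical axis), 1 point per transcript tested, coloured by the call over both experiments, with the dotted line where both are equal. Called transcripts lie at the upper right and the lower left and mostly on the experiment 2 side of the dotted line, while Sdf2l1 lies in the lower right.

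The transcripts that rose most in scribRES came from several functions: a lysosomal glycoprotein, a secreted growth factor and a protease, transcription factors and a GTPase of Golgi transport. The transcripts described in this group are 14 of the 15 with the largest rises among named transcripts whose libraries did not overlap, so the separation of their libraries is part of the choice. Gpnmb (XM_539472.3), a transmembrane glycoprotein of lysosomes and melanosomes, had 11.5 and 12.6 RPKM (experiment 2) and 16.0 and 15.5 (experiment 3) in control cells. In scribRES it had 174 and 162 (experiment 2) and 121 and 137 (experiment 3), 10.6-fold higher (log2 fold change 3.40, standard error 0.15, adjusted p = 1.96e-05). The scribKD +TET libraries lay between, at 26.8 and 26.5 (experiment 2) and 27.4 and 28.2 (experiment 3). Arf4 (XM_843954.2), a small GTPase that recruits coats at the Golgi, was even within both populations: 157 and 166 RPKM (experiment 2) and 168 and 167 (experiment 3) in control and 619 and 586 (experiment 2) and 534 and 546 (experiment 3) in scribRES (log2 fold change 1.79, standard error 0.06, adjusted p = 7.02e-06). In scribKD +TET it was at a mean of 544 RPKM. Egfr (XM_533073.3), the epidermal growth factor receptor, had 4.61 and 5.27 RPKM (experiment 2) and 7.48 and 5.91 (experiment 3) in control and 20.1 and 21.1 (experiment 2) and 17.5 and 18.8 (experiment 3) in scribRES (log2 fold change 1.74, standard error 0.14, adjusted p = 0.000164). The values of scribKD +TET were intermediate, at 11.6 and 9.75 (experiment 2) and 12.9 and 13.9 (experiment 3).

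Plat (XM_539955.3), the tissue plasminogen activator, a secreted protease, had 4.26 and 4.11 RPKM (experiment 2) and 3.05 and 2.95 (experiment 3) in control and 13.7 and 11.8 (experiment 2) and 9.68 and 10.96 (experiment 3) in scribRES (log2 fold change 1.66, standard error 0.09, adjusted p = 4.16e-05). No difference between the experiments was called for it. Runx2 (XM_003639413.1), a transcription factor best known from bone, went from a mean of 2.97 to 10.2 RPKM (log2 fold change 1.80), and Epas1 (XM_531807.3), the alpha subunit of a hypoxia-inducible factor, from 1.83 to 8.27 (2.16). Bhlhe41 (AY204568.1), a helix-loop-helix repressor tied to the circadian clock, rose by 2.26, with scribRES libraries at 61.2 and 56.2 (experiment 2) and 19.2 and 15.7 (experiment 3) RPKM and controls at 6.32 and 7.54 (experiment 2) and 6.62 and 6.02 (experiment 3). Slc10a6 (XM_846210.2), a transporter of sulphated steroids, rose by 2.26, Aldh1l2 (XM_531763.3), a mitochondrial enzyme of folate metabolism, by 2.0, Rnf19a (XM_843361.2), a ubiquitin ligase, by 1.71 and Acer2 (XM_003639383.1), a ceramidase of the Golgi, by 1.69. A transcript named 9330182L06Rik (XM_003431887.1) rose by 1.67.

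For Fgf21 and Isg20 the control levels of experiment 2 lay far below those of experiment 3. Fgf21 (XM_541510.2), a hormone-like fibroblast growth factor made under metabolic stress, had 12.3 and 12.4 RPKM (experiment 2) and 81.2 and 76.2 (experiment 3) in control against 293 and 291 (experiment 2) and 204 and 195 (experiment 3) in scribRES (log2 fold change 2.95, standard error 0.56, adjusted p = 0.00571). Isg20 (XM_545847.3), an interferon-stimulated exonuclease, had 3.88 and 4.35 (experiment 2) and 54.0 and 47.9 (experiment 3) in control and 73.8 and 63.3 (experiment 2) and 64.7 and 56.2 (experiment 3) in scribRES (log2 fold change 2.13, standard error 0.67, adjusted p = 0.035). The rise of Isg20 was thus 4.02 in experiment 2 and 0.25 in experiment 3, and its call was lost when any library of experiment 2 was left out, with an adjusted p of up to 0.106.

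**Figure D2:**
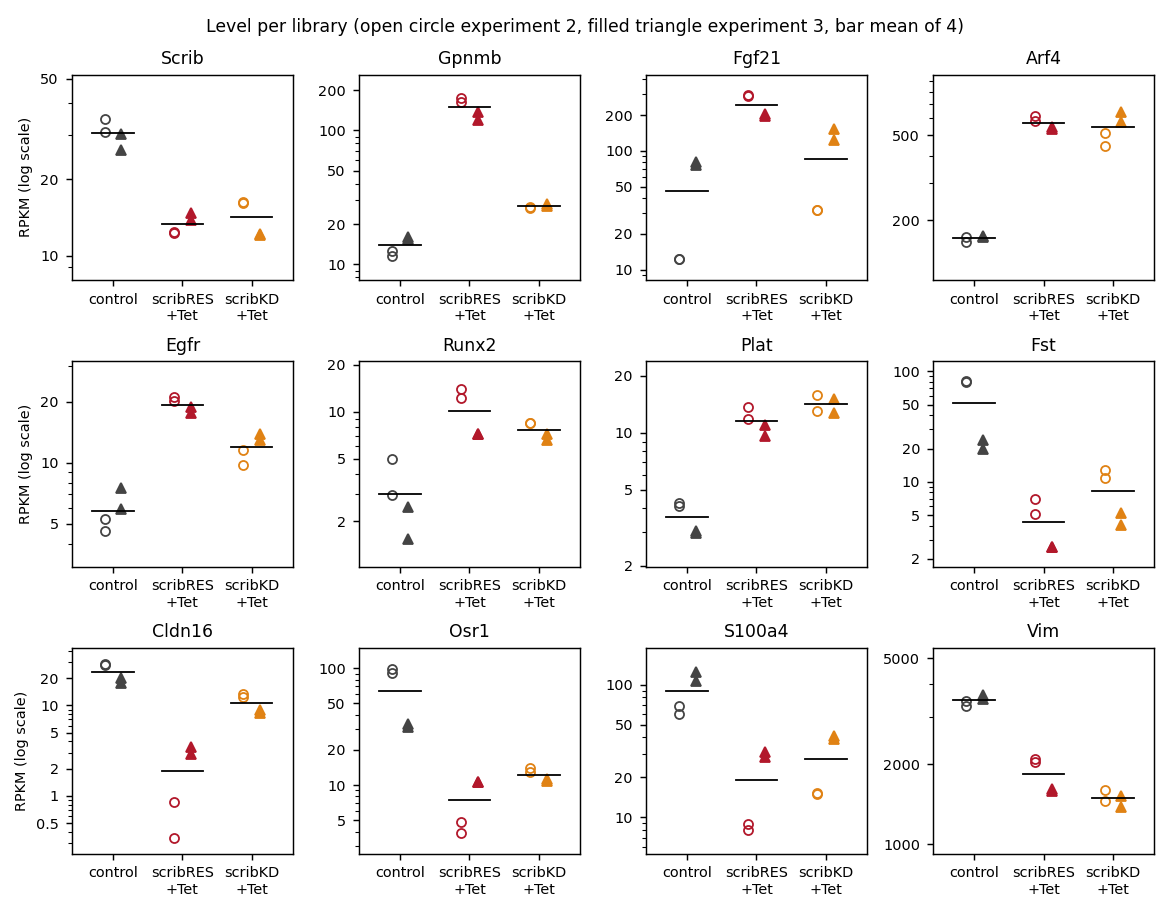
RPKM on a logarithmic axis in each library of control, scribRES +TET and scribKD +TET cells for 12 transcripts, with open circles for experiment 2, filled triangles for experiment 3 and a bar at the mean of 4 libraries. Scrib, Fst, Cldn16, Osr1, S100a4 and Vim are lower in every scribRES library than in every control library, and the other 6 are higher.

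Among the largest falls were the claudins Cldn16 and Cldn2, the activin antagonist Fst and the transcription factor Osr1. Fst (XM_536475.4), follistatin, which binds and neutralises activins, had 81.9 and 80.02 RPKM (experiment 2) and 19.6 and 24.1 (experiment 3) in control cells and 5.11 and 7.01 (experiment 2) and 2.59 and 2.55 (experiment 3) in scribRES, 10.4-fold lower (log2 fold change -3.38, standard error 0.17, adjusted p = 3.08e-05). The scribKD +TET libraries had 12.7 and 10.9 (experiment 2) and 5.19 and 4.05 (experiment 3). Cldn16 (XM_845175.2), the claudin of paracellular magnesium transport in the thick ascending limb, had 28.6 and 27.8 RPKM (experiment 2) and 17.8 and 20.2 (experiment 3) in control against 0.844 and 0.343 (experiment 2) and 2.92 and 3.50 (experiment 3) in scribRES (log2 fold change -3.99, standard error 0.55, adjusted p = 0.00156), from 4 reads in the lowest library. Its mean in scribKD +TET was 10.8 RPKM. Cldn2 (AF358907.1), the cation-selective claudin of leaky epithelia, had 185 and 173 (experiment 2) and 296 and 288 (experiment 3) in control and 11.9 and 10.6 (experiment 2) and 165 and 159.9 (experiment 3) in scribRES (log2 fold change -2.41, standard error 0.55, adjusted p = 0.0112), so the fall was -3.98 in experiment 2 and -0.85 in experiment 3. Osr1 (XM_540097.1), a zinc finger factor of early kidney development, fell from 99.0 and 91.0 (experiment 2) and 33.1 and 31.7 (experiment 3) to 3.88 and 4.83 (experiment 2) and 10.5 and 10.5 (experiment 3) (log2 fold change -3.02, standard error 0.50, adjusted p = 0.00318).

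S100a4 (AB031064.1), a calcium-binding protein linked to motility, had 68.7 and 59.9 RPKM (experiment 2) and 107 and 125 (experiment 3) in control and 8.83 and 7.94 (experiment 2) and 28.3 and 31.0 (experiment 3) in scribRES (log2 fold change -2.44, standard error 0.19, adjusted p = 0.000122). The log2 fold change was -3.31 for Tmeff2 (XM_536010.3), a transmembrane protein with follistatin-like domains, -3.19 for Ripply1 (XM_847751.2), a transcriptional corepressor, and -2.50 for both Chst4 (XM_546842.3), a sulfotransferase, and Podn (XM_003434612.1), a small leucine-rich proteoglycan. It was -1.94 for Ido2 (XM_539961.3), an enzyme of tryptophan breakdown, -1.92 for the tetraspanin Tspan33 (XM_532430.3), -1.91 for Igfbp4 (XM_845091.2), a binding protein of insulin-like growth factors, and -1.87 for Gstt2 (XM_003433436.1), a glutathione transferase. Peg10 (NM_001172543.1), an imprinted gene derived from a retrotransposon, fell by 1.88, a value that rested on high control values in experiment 2 (53.1 and 58.8 (experiment 2) and 7.63 and 7.85 (experiment 3), against 5.25 and 5.28 (experiment 2) and 6.17 and 5.76 (experiment 3) in scribRES), and its adjusted p rose to as much as 0.0803 when a library of experiment 2 was left out. The largest fitted fall among the named transcripts without overlap, -4.36 for an IGF2 record (NM_001195826.1), came from 0 to 12 reads per library, with both scribRES libraries of experiment 2 at 0, so the fitted value depends on the pseudocount. The other 3 records of insulin-like growth factor 2, which can share reads with each other, fell by 1.07, 1.18 and 1.14.

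Most of the named transcripts of vesicle transport between the endoplasmic reticulum and the Golgi that were tested were higher in scribRES. Of 35 secretory pathway transcripts tested, 27 were higher in scribRES and 0 lower, with a median log2 fold change of 0.78. For comparison, 17.0% of all named transcripts tested were called higher and 21.9% lower, with a median of -0.08, and the median over all 10696 was 0.02. Of the 35, 34 were named from the study's list of changes in scribKD +TET. The 1 named from RefSeq alone was not called. The list held 51 entries, of which only those with a name at hand could be counted. The median of the 35 in scribKD +TET over the same controls was 0.66. All 27 had a fold change above 0 in both experiments, which the call largely brings with it. In 26 of them the 4 and 4 libraries did not overlap, against 1261 of all 1674 called transcripts and 25.2% of all tested.

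Members are named here after their values were seen, apart from Arf4, Sec24a and Blzf1, which had the largest rises. Sec24a (XM_845643.2), a cargo-binding subunit of the COPII coat, went from 8.85 and 11.4 RPKM (experiment 2) and 8.60 and 7.83 (experiment 3) in control to 34.4 and 35.9 (experiment 2) and 21.1 and 22.1 (experiment 3) in scribRES (log2 fold change 1.59, standard error 0.11, adjusted p = 9.94e-05). The COPII subunits Sec24d (XM_535702.3), Sec13 (XM_845344.2) and Sec31a (XM_535630.3) rose by 1.03, 0.94 and 0.82, and Sec23ip (XM_535037.3), a partner of Sec23, by 0.58. Coatomer subunits rose by similar amounts, Copb1 (XM_534069.4) by 1.12, Copg1 (XM_533723.3) by 0.87, Arcn1 (XM_536552.3) by 0.86 and Copa (XM_536131.3) by 0.83. Copb1 (XM_534069.4), for example, had 58.1 and 66.1 (experiment 2) and 59.8 and 63.4 (experiment 3) RPKM in control and 146 and 141 (experiment 2) and 125 and 128 (experiment 3) in scribRES. The retrieval receptors for endoplasmic reticulum proteins, Kdelr3 (XM_531737.3) and Kdelr2 (XM_845336.2), rose by 1.07 and 0.80, and Gbf1 (XM_543987.3), the exchange factor that activates Arf proteins at the Golgi, by 0.98. Golgi tethers and SNARE proteins moved with them, Blzf1 (XM_547475.3) by 1.34, Golga5 (XM_537356.3) by 0.78, Golga2 (XM_537828.3) by 0.77, Golga3 (XM_534632.3) by 0.58, Gosr2 (XM_847945.2) by 1.05, Cog3 (XM_843396.2) by 0.88 and Sec22b (XM_533025.3) by 0.83. Srpr (XM_546411.3), Srp54a (NM_001003272.1) and Ssr1 (NM_001003270.1), which bring nascent chains to the endoplasmic reticulum, rose by 0.82, 0.61 and 0.67. Yipf5, Lman1, Sec22a and the transcription factor Creb3l2 complete the 27. ARF1 (NM_001251927.1) was not called, at 0.26 (675 against 808 RPKM). In experiment 2 alone 28 members were called higher and in experiment 3 alone 22. The call of Sec22a was lost without any library of experiment 3.

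**Figure D3:**
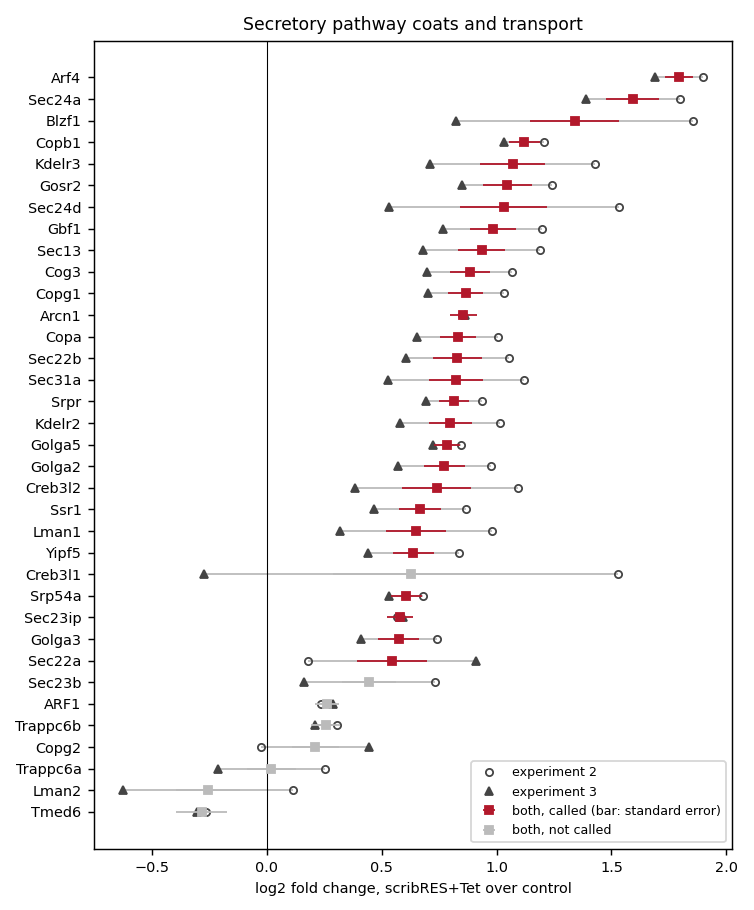
Log2 fold change of scribRES +TET over control for the 35 secretory pathway transcripts tested, with open circles for experiment 2, triangles for experiment 3 and squares with standard errors for both together, red where called. All 27 red squares lie above 0, from Sec22a to Arf4.

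A related list, of the integrated stress and unfolded protein responses, showed how far the comparison depends on the experiment. Of 19 members tested, 9 rose and 0 fell (47.4% called, median 0.63). Calls over all transcripts were 15.7%, over named ones 38.9%, and over those named from the study's list 523 of 1210. Of the 9, 5 were past the fold threshold in each experiment. The median was 1.18 in experiment 2 and 0.27 in experiment 3. A difference between the experiments was called for 11 of 19, against 22.9% of all and 31.2% of named transcripts. Creb3 (XM_849657.2), a membrane-bound transcription factor released by cleavage in the Golgi, rose in both, with 53.7 and 49.6 RPKM (experiment 2) and 63.4 and 67.1 (experiment 3) in control and 116 and 117 (experiment 2) and 116 and 115 (experiment 3) in scribRES (log2 fold change 1.00, standard error 0.08, adjusted p = 0.000165). Uap1 (XM_844774.2) and Gfpt1 (XM_531854.4), enzymes of the hexosamine pathway, rose by 0.72 and 0.56, and Eprs (XM_844375.2), a transfer RNA synthetase, by 0.57, with no call for a difference between experiments. HSP90B1 (NM_001003327.1), a chaperone of the endoplasmic reticulum, had 429 and 480.3 (experiment 2) and 1091 and 1088 (experiment 3) RPKM in control and 2150.3 and 2051 (experiment 2) and 1138 and 1305 (experiment 3) in scribRES (log2 fold change 1.19, standard error 0.36, adjusted p = 0.033). Psph (XM_843195.2), of serine synthesis, likewise rose by 1.71 in experiment 2 and 0.12 in experiment 3. Without any library of experiment 2 the calls of HSP90B1 and Psph were lost, with adjusted p up to 0.099 and 0.103.

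Other members did not pass the test over both experiments and had opposite signs in them. Sdf2l1 (XM_845717.2), a cofactor of chaperones in the endoplasmic reticulum, had 62.8 and 50.3 (experiment 2) and 381 and 396 (experiment 3) RPKM in control and 241 and 226 (experiment 2) and 178 and 191 (experiment 3) in scribRES. Its log2 fold change was 2.05 in experiment 2 and -1.07 in experiment 3, and the experiments differed by -3.13 (adjusted p = 1.16e-06). The scribRES libraries held the narrower range, and the control libraries of experiment 2 lay far below those of experiment 3. Ppp1r15a (XM_533626.3), which directs the phosphatase that ends the stress response, had 25.3 and 30.9 (experiment 2) and 175 and 159 (experiment 3) in control and 99.4 and 94.1 (experiment 2) and 113 and 103 (experiment 3) in scribRES. Atf5 (XM_003638813.1), Sel1l (XM_537530.3) and Creb3l1 (XM_540756.3) had log2 fold changes of 2.40 in experiment 2 and -0.39 in experiment 3, 1.88 in experiment 2 and -0.25 in experiment 3 and 1.53 in experiment 2 and -0.27 in experiment 3, and again their controls were several times higher in experiment 3 than in experiment 2. Agr2 (XM_003431909.1), a protein disulphide isomerase outside this list, had 7.36 and 8.06 (experiment 2) and 56.8 and 57.3 (experiment 3) in control and 66.4 and 55.9 (experiment 2) and 52.3 and 54.9 (experiment 3) in scribRES. The 6 named transcripts with the largest difference between experiments were Isg20, Fgf21, Cldn2, Sdf2l1, Agr2 and the IGF2 record. Over the 2451 transcripts called for such a difference, control libraries moved more between experiments than scribRES libraries in 1893 and less in 558. Over all transcripts tested, the median absolute shift between experiments was 0.33 in control and 0.22 in scribRES cells. Depth also differed between the experiments, as given above, and the 10 most abundant transcripts took 6.37% to 6.41% of reads in the scribRES libraries of experiment 2 and 5.19% to 5.92% in the other 6. Their part in these differences was not tested.

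**Figure D4:**
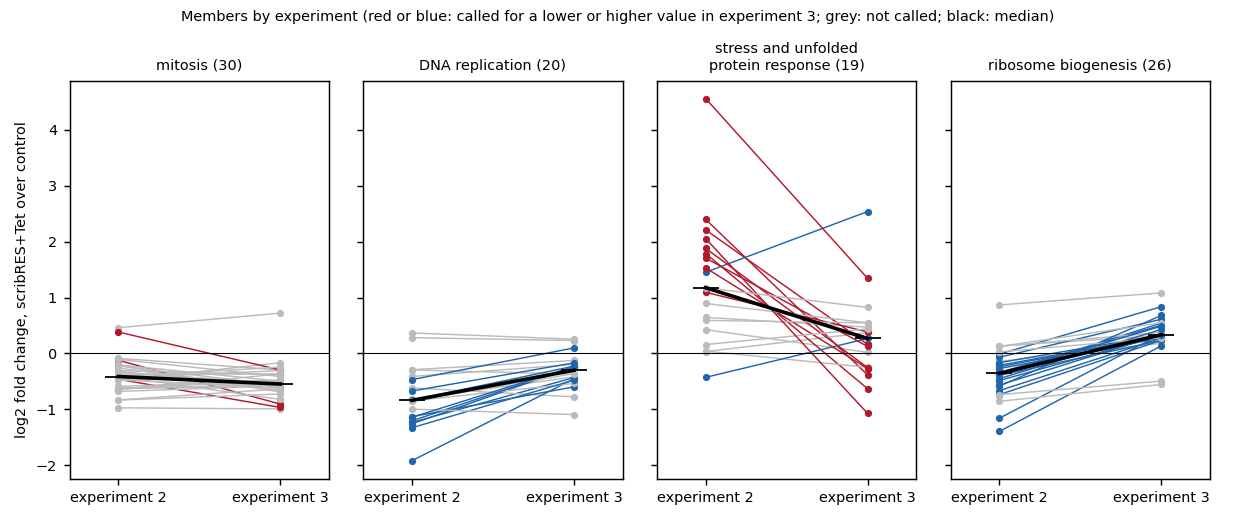
Log2 fold change of scribRES +TET over control in experiments 2 and 3 for the members of 4 lists, 1 line per transcript, red or blue where the difference between experiments was called (lower or higher in experiment 3), grey where it was not, with the list median in black. The median of the mitosis genes stays below 0, DNA replication and ribosome biogenesis medians are higher in experiment 3 than in experiment 2, and that of the stress response is lower.

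The named genes of DNA replication and of mitosis that were tested were mostly lower in scribRES. For DNA replication 13 of 20 members tested fell and 0 rose (median -0.65), and for mitosis 13 of 30 fell and 1 rose (median -0.47), beside 21.9% of named and 6.88% of all transcripts called lower. The fitted change lay below 0 in 28 of the 30 mitosis transcripts and 18 of the 20 replication transcripts. The 4 and 4 libraries did not overlap for 11 of the 13 called replication transcripts. They did not overlap for 7 of the called mitosis transcripts, among them the 1 that rose. Over all transcripts this held for 1261 of the 1674 called and for 25.2% of those tested. All but 1 of each were named from the study's list, and the medians in scribKD +TET over the same controls were -0.60 for replication and -0.50 for mitosis. The 1 of each named from RefSeq alone was not called. The lists held 64 entries for replication and 74 for mitosis, of which only those with a name at hand could be counted.

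Rrm2 (XM_540076.3), the regulatory subunit of ribonucleotide reductase, had 703 and 741 RPKM (experiment 2) and 444 and 449 (experiment 3) in control and 193 and 189 (experiment 2) and 326 and 326 (experiment 3) in scribRES (log2 fold change -1.19, standard error 0.26, adjusted p = 0.00961). H2afx (XM_848163.2), a histone variant that is phosphorylated at DNA breaks, fell in both experiments (-1.04, with no call for a difference between them). Mcm5 (XM_848041.3) and Mcm2 (XM_541736.4), subunits of the replicative helicase, fell by 0.90 and 0.75 on the log2 scale, Rfc5 (XM_534696.3), of the clamp loader, by 0.83 and Esco2 (XM_543224.3), which acetylates cohesin, by 0.86. A difference between experiments was called for 10 of the 20 members, against 22.9% of all and 31.2% of named transcripts. Each had the higher fold change in experiment 3. The control libraries of the replication list were at a median of 0.56 lower on the log2 scale in experiment 3 than in experiment 2, and the scribRES libraries at 0.02 lower. In experiment 3 alone 4 members were called lower. The calls of Mcm2 and Fanca were lost when single libraries of experiment 2 were left out (adjusted p up to 0.0541). That of Prim1 was lost likewise, where its log2 fold change came under the threshold (adjusted p at most 0.0389). TYMS (NM_001252174.1), thymidylate synthase, was not called, at -0.30 (adjusted p = 0.00731).

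The 13 mitosis genes fell by 0.51 to 0.98 on the log2 scale. Nde1 (NM_001252172.1), a dynein regulator at the centrosome, had 20.4 and 20.6 RPKM (experiment 2) and 14.8 and 14.9 (experiment 3) in control and 11.2 and 9.67 (experiment 2) and 7.25 and 7.60 (experiment 3) in scribRES (log2 fold change -0.98, standard error 0.07, adjusted p = 9.94e-05). Cdca8 (XM_845097.2), borealin of the chromosomal passenger complex, fell by 0.78 and Kif18b (XM_548055.3), a kinesin of the spindle, by 0.73. Plk1 (XM_547091.3), a kinase of mitotic entry, fell by 0.54 and Mki67 (XM_003433593.2), the proliferation marker, by 0.54. Aurkb (XM_844813.2) (-0.47) and Cdc20 (XM_003639530.1) (-0.44) stayed under the fold threshold with adjusted p = 0.00116 and 0.00242. The transcript that rose was Wee1 (XM_534051.3), the kinase that holds cells back from mitosis, at 33.8 and 37.3 RPKM (experiment 2) and 31.3 and 28.9 (experiment 3) in control and 48.7 and 49.1 (experiment 2) and 51.2 and 48.1 (experiment 3) in scribRES (log2 fold change 0.59, standard error 0.08, adjusted p = 0.00119). The experiments differed for 3 of the 30, a share below the 22.9% of all and 31.2% of named transcripts. Calls of Mki67 and Stil were lost without control replicate 4, among other libraries, where the log2 fold change came under the threshold, and that of Cenpf without control replicate 4 or any library of experiment 3 (adjusted p up to 0.0836).

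The list of kidney epithelial identity held more falls than rises. It takes in developmental transcription factors and an injury molecule as well as tubule transcripts. Of 35 kidney epithelial genes tested 20 fell and 2 rose (62.9% called; median -0.58), beside 21.9% of named and 6.88% of all transcripts called lower. All 35 were named from the study's list of changes in scribKD +TET, where their median was -0.71. Of the 22 called, 14 were past the threshold in each experiment and 18 had no overlap between the 4 and 4 libraries. Over all transcripts, 1261 of the 1674 called and 25.2% of those tested had no overlap. Fxyd2 (NM_001252337.1), the gamma subunit that modulates the sodium pump, fell most after Cldn16 and Osr1 (25.1 and 17.2 (experiment 2) and 104 and 115 (experiment 3) RPKM in control against 2.65 and 1.98 (experiment 2) and 48.1 and 39.3 (experiment 3) in scribRES; log2 fold change -2.23, standard error 0.34, adjusted p = 0.00243), and its populations overlap across the experiments. Hoxd9 (XM_847350.3) fell by 1.72 and Hoxa5 (XM_539487.3), Hoxa3 (XM_859451.1) and Hoxb8 (XM_548179.3) by 0.69, 0.67 and 0.66. The Iroquois factors Irx3 (XM_544403.3) and Irx5 (XM_846105.1), which pattern the nephron, fell by 1.28 and 0.92. Pax8 (X83591.1), a transcription factor that specifies tubule epithelium, had 48.3 and 52.0 RPKM (experiment 2) and 53.8 and 48.1 (experiment 3) in control and 24.7 and 22.5 (experiment 2) and 44.6 and 43.7 (experiment 3) in scribRES (log2 fold change -0.64, standard error 0.17, adjusted p = 0.018). The call of Pax8 was lost without any library of experiment 2. Car2 (NM_001145170.1), the cytosolic carbonic anhydrase, had 902 and 907 (experiment 2) and 915 and 925 (experiment 3) in control and 327 and 339 (experiment 2) and 547 and 553 (experiment 3) in scribRES (log2 fold change -1.09, standard error 0.13, adjusted p = 0.000852). Ggt1 (XM_543526.3), a brush border peptidase, fell by 1.18, Kif12 (XM_538808.2), a kinesin, by 1.18, Havcr1 (HQ412642.1), the kidney injury molecule, by 1.08 and Trpv4 (EF561643.1), an osmosensitive channel, by 0.66. Gata3 (XM_844060.1) rose, with 10.4 and 8.80 (experiment 2) and 5.33 and 3.27 (experiment 3) in control and 19.8 and 19.7 (experiment 2) and 11.5 and 12.7 (experiment 3) in scribRES (log2 fold change 1.28, standard error 0.17, adjusted p = 0.00121), as did the potassium channel Kcnk1 (XM_546083.3) (0.58). Keratin 19 was not called (Krt19 (NM_001253742.1), -0.21).

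Among junction genes claudins fell and some desmosomal genes rose. Of 19 tested, 8 fell and 3 rose (57.9% called, beside 38.9% of all named transcripts; median -0.27), Scrib itself among the falls, with Cldn16 and Cldn2 the largest. The desmosomal genes Dsg3 (AF394784.1) and Dsp (XM_545329.3) rose, Dsp from 38.3 and 43.2 RPKM (experiment 2) and 32.4 and 29.1 (experiment 3) to 62.4 and 65.1 (experiment 2) and 57.7 and 63.8 (experiment 3) in scribRES (log2 fold change 0.81, standard error 0.09, adjusted p = 0.000616) and Dsg3 by 1.02 with overlapping libraries, and so did Mllt4 (XM_541201.3), afadin (0.55). Of 18 actin, contractility and mesenchymal genes 8 fell and 1 rose (50% called; median -0.25). Vim (XM_851385.2), vimentin, an intermediate filament protein usual in mesenchymal cells and abundant in MDCK, had 3321 and 3466 RPKM (experiment 2) and 3507 and 3641 (experiment 3) in control and 2089.5 and 2049 (experiment 2) and 1618 and 1593 (experiment 3) in scribRES (log2 fold change -0.93, standard error 0.09, adjusted p = 0.000332). The one rise was that of Snai2 (EF450456.1), a repressor of epithelial genes, from a mean of 8.64 to 18.5 RPKM (log2 fold change 1.08, standard error 0.09, adjusted p = 0.000234). Spire2 (XM_003639062.1), an actin nucleator, fell by 0.84. Cilium genes numbered 4 falls and 1 rise of 14 (35.7% called; median -0.31), the falls being Dcdc2a (XM_848422.2, -1.60), Wdr34 (XM_548435.3, -0.75), Tmem107 (XM_003434617.1, -0.74) and Arl3 (XM_003639993.1, -0.68) and the rise Tmem237 (XM_003640185.1, 0.79).

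Matrix genes moved in both directions, with 12 higher and 9 lower of 28 transcripts (27 genes) tested (75% called, beside 38.9% of all named transcripts), and a median of 0.23. Col12a1 (XM_539002.3), a collagen of fibril surfaces, had 20.4 and 25.2 RPKM (experiment 2) and 1.52 and 1.38 (experiment 3) in control and 92.4 and 100.3 (experiment 2) and 7.19 and 9.47 (experiment 3) in scribRES (log2 fold change 2.26, standard error 0.13, adjusted p = 4.16e-05), a rise in each experiment although the libraries overlap across them. Tgfbi (XM_538640.3), a matrix protein induced by transforming growth factor beta, rose by 1.25 in experiment 2 and 2.74 in experiment 3. Both records of Timp3 (JF508171.1), a tissue inhibitor of metalloproteinases, rose by 1.06 and 1.11. Thbs1 (XM_544610.3), thrombospondin, rose from a mean of 200.2 to 425 RPKM (log2 fold change 1.07, standard error 0.09, adjusted p = 0.000212). Spp1 (XM_003434024.1), osteopontin, had 2150.4 and 2148 RPKM (experiment 2) and 1154 and 1344 (experiment 3) in control and 729 and 777 (experiment 2) and 498 and 575 (experiment 3) in scribRES (log2 fold change -1.37, standard error 0.09, adjusted p = 6.58e-05), and Vcan (XM_003434416.1), versican, fell by 1.46. Among adhesion receptors 3 rose and 3 fell of 14 (42.9% called): Cd44 (NM_001197022.1), the hyaluronan receptor, Icam1 (NM_001003291.1) and Igsf5 (XM_848257.3) rose by 0.70, 0.68 and 0.71, while Cd81 (XM_849288.2) and Msln (XM_849019.2), with Tspan33, fell by 0.68 and 0.53. The call of Msln was lost when any of 4 libraries was left out, control replicates 3 and 6 and scribRES replicates 4 and 6.

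In the pathway of transforming growth factor beta and bone morphogenetic proteins, 4 rose and 5 fell of 14 (64.3% called, beside 38.9% of all named transcripts; median 0.23). BMPR1B (NM_001145151.1), a bone morphogenetic protein receptor, had 4.23 and 4.67 RPKM (experiment 2) and 1.65 and 1.68 (experiment 3) in control, 9.37 and 9.99 (experiment 2) and 5.98 and 6.31 (experiment 3) in scribRES (log2 fold change 1.46, standard error 0.16, adjusted p = 0.000504) and a mean of 3.57 in scribKD +TET. Pmepa1 (XM_543070.3), a target and inhibitor of the pathway, rose by 1.31, Gdf11 (XM_843265.3), a ligand, fell by 1.80 and Id3 (AJ271644.1), a target of bone morphogenetic proteins, by 1.32. Of 14 Notch, Wnt and Hedgehog genes 6 fell and 1 rose (50% called; median -0.34), with the ligand Wnt2 (XM_849870.1) (-1.62) and the antagonists Apcdd1 (XM_537333.2) (-1.10) and Rnf43 (XM_548234.3) (-0.98) falling and Wnt7a (XM_844117.2) rising (0.67). Growth factors and their receptors gave 9 rises and 8 falls of 31 transcripts (26 genes; 54.8% called; median -0.19). Egf (AB049597.1) fell by 1.51 while its receptor rose, from 9.14 and 10.1 (experiment 2) and 11.2 and 12.3 (experiment 3) RPKM in control to 2.30 and 1.91 (experiment 2) and 6.53 and 6.32 (experiment 3) in scribRES. Sema7a (XM_544769.3), a semaphorin, rose by 1.20. Immediate early and MAPK feedback genes gave 2 rises and 7 falls of 28 (32.1% called; median -0.16), the rises being Dusp4 (XM_539995.3, 0.81), a phosphatase of MAP kinases, and Etv5 (XM_844784.2, 1.12), and the largest falls Ier5l (XM_548423.3, -1.49), Ets2 (XM_544886.3, -1.01) and Zfp36 (XM_541624.3, -0.95). Of 19 targets of p53, 5 rose and 2 fell (36.8% called; median -0.01, and 0.47 in scribKD +TET), a share near that of all named transcripts. Cdkn1a (XM_532125.3), the cyclin-dependent kinase inhibitor, named here after its values were seen, had 129.9 and 109 RPKM (experiment 2) and 135 and 122 (experiment 3) in control, 225 and 233 (experiment 2) and 194 and 195 (experiment 3) in scribRES (log2 fold change 0.77, standard error 0.09, adjusted p = 0.000852) and 687 and 636 (experiment 2) and 487 and 438 (experiment 3) in scribKD +TET. Zmat3 (XM_003640141.1) rose by 0.78, and Notch1 (XM_537795.3) and Gtse1 (XM_845993.2) fell by 0.58 and 0.59.

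In the immune and survival lists the shares of calls lay on both sides of the 38.9% of all named transcripts. Of transcripts named from the study's list, 523 of 1210 were called. Of 12 interferon and antigen presentation genes 1 rose, Isg20, and 3 fell (33.3% called; median -0.16): H2-Ea-ps (NM_001011723.1, -1.09), Ifi30 (XM_533874.3, -0.82) and Ly6e (XM_003431808.1, -0.82). Cytokine, NF-kappaB and complement genes gave 4 rises and 5 falls of 20 (45.0% called; median -0.26). Clu (M55251.1), clusterin, was among the most abundant, with 4642 and 4532 RPKM (experiment 2) and 3589 and 3693 (experiment 3) in control and 8777 and 8745 (experiment 2) and 5074 and 5664 (experiment 3) in scribRES (log2 fold change 0.75, standard error 0.08, adjusted p = 0.000645). Cyld (XM_849343.2) and Irak3 (XM_538271.3), which restrain NF-kappaB signalling, rose by 1.12 and 0.85, and Myd88 (XM_534223.3), an adaptor of that pathway, and the receptor chain Il10ra (XM_848380.1) fell by 0.63 and 0.85. Of 9 apoptosis genes 2 rose and 0 fell (22.2% called; median 0.09), Clu and the inhibitor of apoptosis Birc3 (EF102104.1, 0.74).

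Metabolic lists held both rises and falls, to be read against 38.9% of all named transcripts and 523 of 1210 named from the study's list. Lipid and sterol genes gave 5 rises and 7 falls of 31 (38.7% called; median -0.13). Cpt2 (XM_546705.3), of mitochondrial fatty acid import, had 51.6 and 50.1 RPKM (experiment 2) and 57.8 and 55.0 (experiment 3) in control and 19.3 and 18.5 (experiment 2) and 25.1 and 25.8 (experiment 3) in scribRES (log2 fold change -1.29, standard error 0.07, adjusted p = 4.16e-05). Fabp3 (XM_535331.3), a fatty acid carrier, and Elovl6 (XM_545023.3), an elongase, fell by 1.12 and 0.94, and Elovl7 (XM_846175.1) and Smpd1 (XM_542452.3), acid sphingomyelinase, rose by 0.65 and 0.91. Of 33 solute carriers 7 rose and 9 fell (48.5% called; median -0.17). SLC2A1 (NM_001159326.1), the glucose transporter, rose from 438 and 457 (experiment 2) and 711 and 677 (experiment 3) RPKM to 1059 and 1107 (experiment 2) and 858 and 892 (experiment 3) (log2 fold change 0.80, standard error 0.17, adjusted p = 0.00873), and Slc12a4 (AB011372.1), a potassium chloride cotransporter, by 0.78. The urate transporter Slc22a12 (AB738915.1), the amino acid transporter Slc7a8 (XM_547730.3) and the nucleoside transporter Slc29a1 (AY587107.1) fell by 1.83, 1.22 and 1.0. Hypoxia and glycolysis genes gave 6 rises and 6 falls of 22 transcripts (21 genes; 54.5% called; median -0.04), among them VEGFA (NM_001003175.2), which rose by 1.91 in experiment 2 and 0.22 in experiment 3 and lost its call without any library of experiment 2, and Stc1 (XM_543238.3, -1.40), Txnip (XM_533037.3, -1.27) and Angptl4 (XM_533928.3, -1.24), which fell. Drug metabolism and ABC transporter genes gave 2 rises and 5 falls of 14 (50% called; median -0.21), with Cyp4a10 (DQ138951.1) and the retinal dehydrogenase Aldh1a1 (XM_533525.3) falling by 1.85 and 1.31 and Nqo1 (XM_848524.2), a quinone reductase, rising by 0.78. In the oxidative stress list 3 rose and 1 fell of 11 (36.4% called; median 0.0012), Hmox1 (NM_001194969.1), heme oxygenase, rising by 0.67 and Pir (XM_537963.3) by 0.60, while PRDX1 (NM_001252165.1), a peroxiredoxin, fell by 0.77. Lysosomal genes gave 6 rises and 4 falls of 18 (55.6% called; median 0.33), with Igf2r (AY965264.1, 0.69) among the rises, and Gla (XM_538109.3, -1.18) and both records of cathepsin S (Ctss, -0.72 and -0.64) among the falls.

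Of the lists examined, those of mitochondrial and ribosome biogenesis genes had the lowest shares of calls. Of 22 mitochondrial translation and respiration genes 1 rose and 3 fell (18.2% called; median 0.03): Atp5s (XM_547805.3, 0.69) rose, and Mpv17l2 (XM_541943.3, -1.11), Mcu (XM_546160.4, -0.87), the mitochondrial calcium uniporter, and Mrpl41 (XM_548346.2, -0.50) fell. The call of Mrpl41 was lost without control replicates 3 or 6 or scribRES replicates 4 or 6. Of 26 ribosome biogenesis genes 1 rose and 2 fell (11.5% called; median 0.05): Polr3d (XM_003639882.1, 0.98), a subunit of RNA polymerase III, rose, and Srm (XM_845803.3, -0.71), spermidine synthase, and Rexo4 (XM_548392.3, -0.62) fell. The list differed between experiments all the same. Of 26 members 18 were called for a difference, all with the higher value in experiment 3, against 22.9% of all and 31.2% of named transcripts. The median was -0.36 in experiment 2 and 0.33 in experiment 3. Control libraries were at a median of 0.84 lower and scribRES libraries at 0.22 lower on the log2 scale in experiment 3 than in experiment 2.

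**Figure D5:**
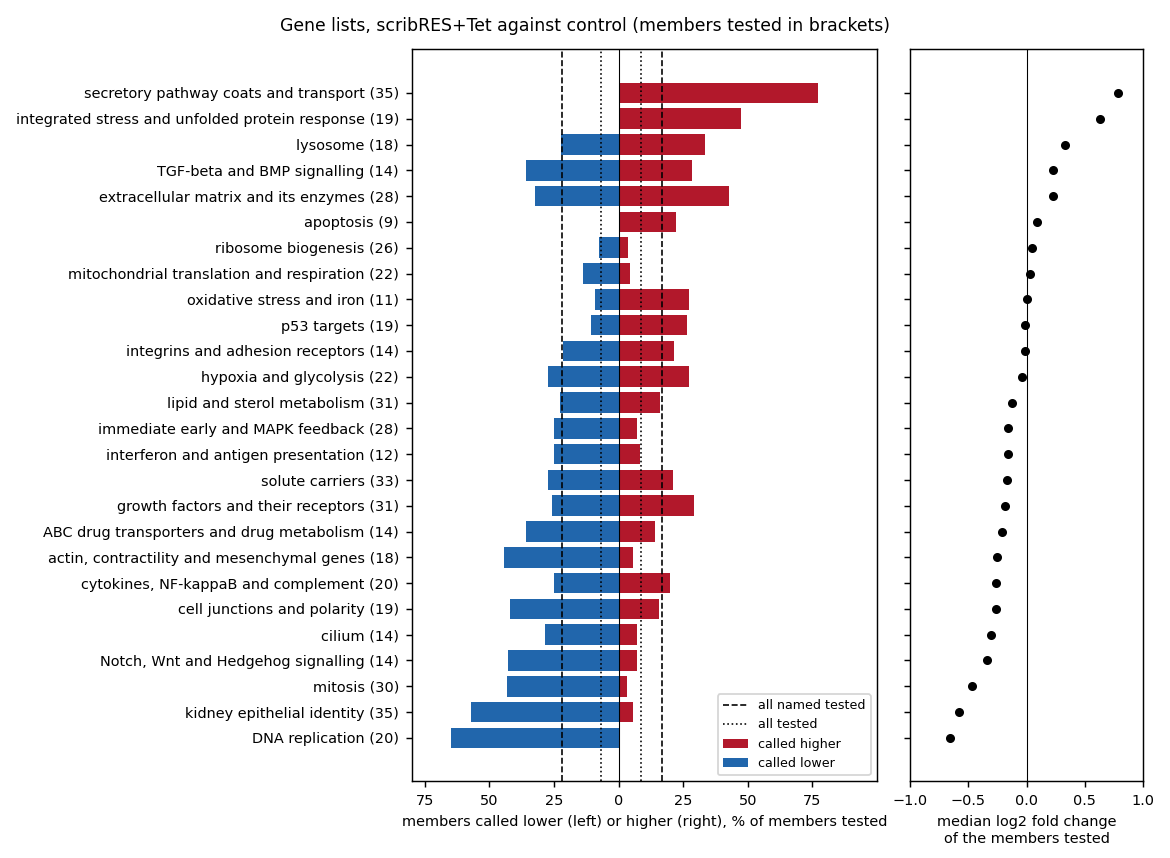
Share of tested members called higher (red, right) or lower (blue, left) in scribRES +TET for 26 gene lists, and the median log2 fold change of each list (right panel), with dashed lines for all named and dotted lines for all transcripts tested. The secretory pathway list has the highest share of rises (27 of 35) and DNA replication the highest share of falls (13 of 20).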

How the data were processed

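Per the labels and the study's methods, the authors filtered reads at a base quality of 20, trimmed them with cutadapt 1.0, mapped them with TopHat2 2.0.6 to the dog genome (CanFam3.1) and counted reads overlapping 21571 transcripts. They deposited RPKM values; no further scaling between libraries is stated, and how reads matching several transcripts were treated is not given in the sources used here. RPKM values moved in steps of whole reads (tolerance 0.001), from which reads were recovered for 18703 transcripts, while 2868 were at 0 in every library.

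The values were fitted with limma 3.58.1 (lmFit, eBayes with an intensity trend; R 4.3.3) on log2(RPKM + 0.1), with the experiment as a block, two-sided tests and Benjamini-Hochberg adjustment over the 10696 transcripts tested. Fold changes are on that scale, which understates those of low transcripts. The difference between experiments was tested as an interaction. Scripts were checked on simulated data. Figures used Python 3.11.15 and matplotlib 3.10.9. The study's own tool, edgeR, was not used, and limma-voom was run on the recovered reads as an alternative.

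Control and scribRES libraries deviated together by experiment (correlation of deviations 0.36 to 0.52 within an experiment, -0.36 to -0.54 between experiments). Deviations were taken from the mean of the 4 libraries of a population, so the negative values follow from the positive ones. The libraries did not deviate together by number (correlation of the replicate differences between populations 0.06 in experiment 2 and 0.04 in experiment 3). The experiment, and not the number, thus pairs them. Libraries are numbered as replicates 3 and 4 (experiment 2) and 5 and 6 (experiment 3).

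Names are those of mouse orthologues in the study's first list (1375 transcripts) or of RefSeq (441 more; 492 identifiers were found in the RefSeq table of assembly UU_Cfam_GSD_1.0). A further 180 occur only in a second list, of changes between scribRES and scribKD +TET. In it 34 of the 306 transcripts shared with the first carry another name, and the 180 were left out of list counts. Gene lists and members were chosen with earlier results of these data known. Named one by one were Scrib, the 15 largest rises and falls among called, named transcripts with the same sign in both experiments and no overlap, up to 3 called members per list and direction (all where a list had 6 or fewer), the 6 largest differences between experiments, and central list members not called. Further list members were named after their values were seen. Alternatives were other pseudocounts, filters, thresholds, scaling and blocks, experiment means, other sets of libraries, recovered reads and leaving out each library. Genomic coordinates were not analysed here, and the values of some named transcripts are not reported here.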

Additional observations from a re-analysis of the deposited data

Results flagged for a closer look

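The effect of scribRES against control differed between experiments 2 and 3 for 94 of the 211 transcripts described one by one, by limma's test of the interaction (adjusted p under 0.05 and an absolute difference above 0.5). The share was 22.9% of all and 31.2% of named transcripts tested. Some of the 211 were chosen because this difference was called, so the 94 are not independent of the choice. Values are the log2 fold change in experiment 3 minus that in experiment 2, so that a positive value for a gene that fell means a smaller fall in experiment 3. Among the largest rises the differences were -3.78 for Isg20, -3.22 for Fgf21, -1.66 for Acer2, -1.62 for Bhlhe41, -1.45 for Slc10a6, -1.28 for Epas1, -1.11 for Rnf19a, -0.77 for Gpnmb, -0.60 for Egfr and 1.09 for Aldh1l2. Among the largest falls they were 3.13 for Cldn2, 3.06 for IGF2, 3.01 for Peg10, 2.92 for Cldn16, 2.81 for Osr1, 2.52 for Tmeff2, 2.40 for Ripply1, 2.03 for Podn, 1.90 for Igfbp4, 1.06 for Chst4, 1.03 for Tspan33, 0.97 for Gstt2, 0.96 for S100a4, 0.70 for Fst and 0.56 for Ido2. For genes of the stress response and of endoplasmic reticulum proteins they were -3.13 for Sdf2l1, -3.06 for Agr2, -2.78 for Atf5, -2.42 for Ppp1r15a, -2.13 for Sel1l, -2.05 for HSP90B1, -1.80 for Creb3l1, -1.58 for Psph and 0.69 for Eif2s1. In the secretory pathway they were -1.03 for Blzf1, -1.0 for Sec24d, 0.73 for Sec22a, -0.72 for Kdelr3, -0.71 for Creb3l2, -0.66 for Lman1, -0.59 for Sec31a and -0.51 for Sec13. In replication and mitosis they were 1.46 for Rrm2, 1.02 for Mcm2, 0.96 for Fanca, 0.91 for Pole3, 0.85 for Mcm5, 0.80 for Rfc5, 0.61 for Prim1, 0.53 for Esco2, -0.78 for Cenpf and -0.51 for Hjurp. For kidney, junction and cilium genes they were 1.79 for Fxyd2, 1.57 for Dcdc2a, 1.28 for Egf, 1.19 for Kif12, -1.06 for Dsg3, 1.05 for Ggt1, 0.88 for Irx3, 0.88 for Pax8, 0.74 for Havcr1, 0.70 for Car2 and 0.66 for Irx5. For signalling and matrix genes they were 1.92 for Wnt2, -1.68 for VEGFA, 1.49 for Tgfbi, 1.45 for Apcdd1, 1.36 for Gdf11, 0.94 for Ier5l, 0.86 for Id3, -0.80 for Etv5, 0.72 for Rnf43, 0.72 for BMPR1B, -0.58 for Wnt7a, -0.54 for Ets2 and -0.65 for Igsf5. For immune and survival genes they were 0.92 for Il10ra, -0.82 for Birc3, -0.80 for Cyld, -0.76 for Ifi30 and 0.62 for H2-Ea-ps. For metabolic genes and transporters they were 1.62 for Cyp4a10, 1.58 for Stc1, 1.47 for Txnip, 1.35 for Aldh1a1, 1.29 for Slc7a8, -0.94 for SLC2A1, 0.77 for PRDX1, 0.76 for Slc22a12, 0.67 for Elovl6, -0.65 for Smpd1, -0.64 for Nqo1, -0.61 for Elovl7 and -0.60 for Slc12a4. 

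In 5 of 422 groups of 4 libraries (1.18%), 1 library stood apart from the other 3 by more than Dixon's critical ratio, where chance gives about 5%. The gap was 0.837 of the range for Arf4, 0.869 for Irx3 and 0.861 for Irx5 in control libraries, and 0.836 for Ezh2 and 0.851 for Rnf43 in scribRES libraries.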

How the results depend on the processing

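Against 1674 calls in the analysis as reported, there were 2584 (1551 higher) with no filter on low values, 4266 (2308 higher, 1958 lower) with no fold threshold and 340 (181 higher, 159 lower) with an absolute log2 fold change above 1, where the secretory pathway kept 7 calls, DNA replication 2, mitosis 0 and kidney identity 10. Mitosis had 27 lower with no fold threshold. Experiment 2 alone gave 3367 (1751 higher, 1616 lower) and experiment 3 alone 1026 (546 higher, 480 lower), with 4 for DNA replication. Without the experiment as replicate block the count was 986 (552 higher, 434 lower), with 5 for mitosis, and with a replicate block of same-numbered libraries 1285. Experiment means gave 0 in all, in both directions and in the 4 lists, 1686 at an unadjusted p under 0.05, and for Scrib -1.18 with an adjusted p of 0.138 by limma, a test of 4 values. Leaving out 1 library gave 1239 to 1992 calls, 676 to 1110 higher and 563 to 882 lower, 2286 to 2580 for the difference between experiments, 26 to 27 in the secretory pathway, 10 to 13 in DNA replication, 11 to 14 in mitosis, 18 to 21 in kidney identity, and -1.27 to -1.11 for Scrib. In experiment 3 alone the direction turned for Atf5 (-0.39), Ppp1r15a (-0.63), Eif2s1 (0.27), Sel1l (-0.25), Creb3l1 (-0.27), Sdf2l1 (-1.07) and Agr2 (-0.0903), of which none was called over both experiments. The cause of these changes was not tested beyond the number of libraries, transcripts and thresholds that define each alternative. Of the called transcripts among the 211 described one by one, 17 lost the call when 1 library was left out, 47 in experiment 3 alone and 11 in experiment 2 alone. Unadjusted p-values and an interaction test on recovered reads were added after the data were seen. Calls rest on libraries and not on biological replicates.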

Other observations

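Transcripts named only in the study's second list, whose names are uncertain for the reason given with the methods, held some of the largest rises. That list holds transcripts that the study found different between scribRES and scribKD +TET cells. Their distance from scribKD +TET is therefore part of the choice, and their changes from control are not independent of it. The transcript named Bbox1 (XM_534096.3), an enzyme of carnitine synthesis, had 1.73 and 1.37 RPKM (experiment 2) and 1.57 and 1.47 (experiment 3) in control cells, 9.84 and 9.33 (experiment 2) and 8.97 and 8.39 (experiment 3) in scribRES (log2 fold change 2.50, standard error 0.12, adjusted p = 2.45e-05) and 1.58 and 1.92 (experiment 2) and 0.726 and 0.811 (experiment 3) in scribKD +TET. It was higher in every scribRES library than in any library of the other populations. The one named Enpp5 (XM_538945.3) had 0.890 and 1.02 (experiment 2) and 1.69 and 1.87 (experiment 3) in control and 7.43 and 7.88 (experiment 2) and 8.29 and 6.89 (experiment 3) in scribRES (log2 fold change 2.45, standard error 0.19, adjusted p = 0.000135), and the one named Il1rn (AY026462.1), an antagonist of interleukin signalling, 2.66 and 2.87 (experiment 2) and 2.59 and 2.56 (experiment 3) and 42.6 and 41.1 (experiment 2) and 15.2 and 16.7 (experiment 3) (log2 fold change 3.23, standard error 0.24, adjusted p = 0.000113). Those named Wnt5b (XM_543883.3), Ankrd1 (XM_534960.3), Dusp11 (XM_003433519.1) and Tmem74 (XM_003431772.1) rose by 2.99, 2.96, 2.80 and 2.56, and the one named Sftpd (XM_546184.3) fell by 2.31. Of 150 transcripts of this kind tested, 76 were called, beside 15.7% of all and 38.9% of the other named transcripts tested. Of the 1674 called transcripts, 1046 (62.5%) had no name in any source used.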
